A study of Mus musculus with 12 samples.

Results

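The genes of nuclear DNA replication and origin licensing were followed in mouse C2C12 myoblasts, C2C12 myotubes and 2 adult hind limb muscles. The set holds 44 genes chosen by name for their roles at the replication origin and fork, and 43 of them were found on the array by their symbol or an older form of it, among 27599 gene names on the array. All 43 passed the filter on dim probes, so all are among the 18862 genes tested, and 38 were well above background on all 12 arrays. The other member, Gins2, was carried on the array only under a clone name, and its probe is given separately and counted nowhere.

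A eukaryotic cell copies its nuclear DNA once per division. The origin recognition complex, Cdc6 and Cdt1 load the Mcm helicase onto origins (licensing), geminin (Gmnn) holds Cdt1 back until the next division, and the Cdc7-Dbf4 kinase together with Mcm10, Cdc45 and the GINS complex turns the loaded helicase on. Polymerases alpha, delta and epsilon then synthesise DNA with the sliding clamp PCNA, and many of these genes are classical targets of E2F transcription factors, which are held off in cells that leave the cell cycle. Skeletal muscle fibres are post-mitotic, but some of these proteins, the single-strand binding complex RPA and polymerase delta among them, also act in DNA repair.

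C2C12 is an established mouse myoblast line. The myoblasts were growing in serum-rich medium and were collected at about 50% confluence. The myotubes came from the same line after 96 h in low-serum differentiation medium, and were lifted with trypsin and replated briefly so that mononucleated cells would attach and be left behind; the purity reached is not given in the labels. EDL (extensor digitorum longus, fast and glycolytic) and soleus (slow and oxidative) were whole muscles of male CD1 mice aged 3 months, both hind limbs of 1 mouse per sample. The labels name no transgene and no drug. There were 3 arrays per group. The sources used here do not state if cultures were independent, so a p-value speaks only of the spread among these arrays. The series concerns the supply of DNA precursors to mitochondria in muscle cells. The replication genes bear on the nuclear side, but their transcript levels do not measure the nuclear demand.

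Levels below are log2 signals scaled to each array's 75th percentile, and differences are log2 differences with the standard error of the limma fit. A gene was called at a Benjamini-Hochberg adjusted p under 0.05 over all 18862 genes and an absolute difference of at least 1. The 75th percentile signal was 1018.2 to 1556.4 in the cultured cells and 457.29 to 614.27 in the muscles. Scaling to the added spike-in RNA instead lowered every difference of muscle against cultured cells by 0.95 to 1.55, the difference of myotubes against myoblasts by 0.33 and that of soleus against EDL by 0.27. Marker genes followed the labels: all 6 myotube markers and all 7 fast fibre markers were called higher in myotubes than in myoblasts, 4 of 7 fast fibre markers were called lower and 6 of 7 slow fibre markers higher in soleus than in EDL. In these bulk samples, fewer cells of a type and less RNA per cell cannot be told apart.

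Members of the set were highest in the dividing myoblasts without exception. For all 43 members the 3 myoblast arrays lay above the arrays of each other group, which held for 32.7% of all genes in myotubes, 36.6% in EDL and 37.2% in soleus. Against myoblasts, 42 of 43 members were called lower in myotubes, none higher, with a median difference of -3.18; across all genes tested, 16.5% were called lower and 18.9% higher, with a median of 0.04. In EDL, 39 were called lower and none higher, with a median of -3.62, where 24.8% of all genes were called lower and 33% higher, with a median of 0.26. In soleus, 38 were called lower and none higher, with a median of -3.55, where 24.7% of all genes were called lower and 30.8% higher, with a median of 0.18. These 3 comparisons share the myoblast arrays. With spike-in scaling all 43 members were called lower in each muscle against myoblasts, as were 47.5% of all genes in EDL and 54.8% in soleus.

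**Figure D1:**
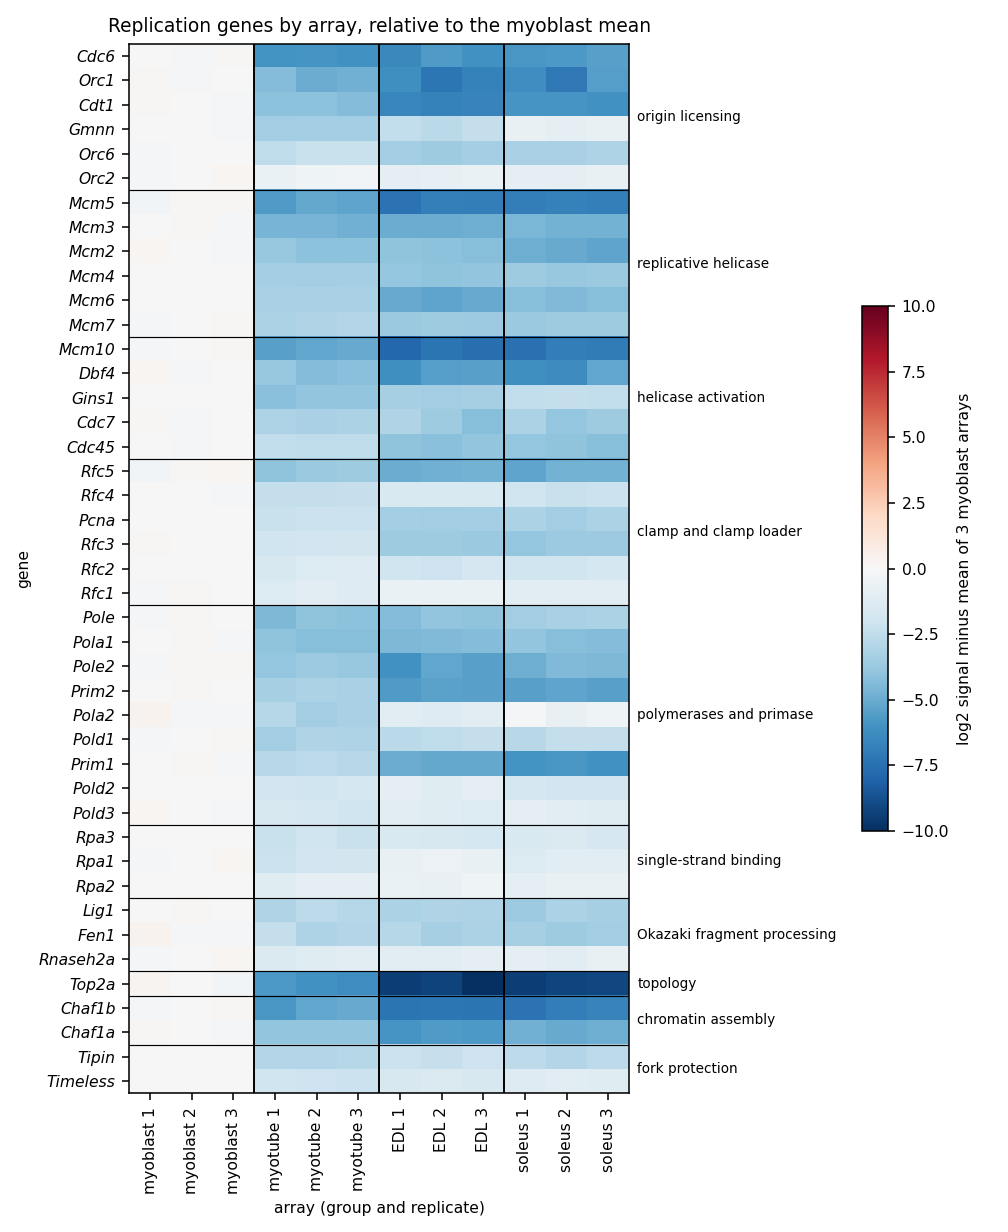
Log2 signal of the 43 replication genes (rows, by role) on the 12 arrays (columns), minus the mean of the 3 myoblast arrays of that gene; blue is lower, on a scale from -10 to 10. Nearly every row is blue in myotubes, EDL and soleus, deepest for Top2a in EDL and soleus, where it was not above background, and palest for Orc2, Rpa2, Rfc1 and Rnaseh2a.

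The fall was far from even. Between myotubes and myoblasts it ran from -5.97 (Top2a) to -0.46 (Orc2). By role, the median was -4.03 for the 5 helicase activators, -3.83 for the 6 licensing genes, -3.71 for the 6 Mcm subunits, -3.20 for the 9 polymerase and primase subunits, -2.06 for the clamp and its 5 loader subunits and -1.98 for the 3 RPA subunits. Muscle against myotubes was mixed. In EDL, 17 members were called lower, 2 higher and 24 neither, with a median of -0.35, against 19.8% lower and 27.9% higher among all genes, whose median was 0.21. In soleus, 15 were called lower, 3 higher and 25 neither, with a median of -0.50, against 19.5% lower and 25.8% higher among all genes, whose median was 0.15. With spike-in scaling these splits became 27 lower and 1 higher in EDL (40.1% and 13.9% of all genes) and 30 lower and 2 higher in soleus (49.1% and 11.7%). With normexp background correction they became 8 lower and 2 higher in EDL (12% and 14% of all genes) and 6 lower and 4 higher in soleus (12.5% and 13.1%). The lowest group mean was that of myotubes for 15 members, of EDL for 20 and of soleus for 8, but with spike-in scaling it was that of myotubes for Pola2 alone, of EDL for 14 and of soleus for 28.

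Sequences are shown for the promoters because the members moved together and E2F sites are the best known feature of replication gene promoters. RefSeq promoter sequences (build GRCm38.p6, 250 bases before to 50 after the start) were at hand for 36 of the 43 members. Both strands were searched for the E2F letters TTTCCCGC, TTTGGCGC, TTTGCCGC and TTTCGCGC. Of the 36 members, 13 (36.1%) held at least 1 of them, against 2.6% of the 27025 genes in the table. The letters CCAAT were present in 22 members (61.1%, against 41.1% of all genes) and the CHR letters TTTGAA in 7 (19.4%, against 20.2%). Both E2F and CCAAT letters stood in 7 members (19.4%, against 1.26%). A match is a description of the letters, and no match says only that these letters are not in the window. Each line below gives 30 bases upstream of the start, 5′ to 3′ on the strand of the gene, with the E2F letters (or their reverse complement) in capitals.
Orc1, chr4:108579416-108579445, plus strand: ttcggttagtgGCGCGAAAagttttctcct
Cdc6, chr11:98908002-98908031, plus strand: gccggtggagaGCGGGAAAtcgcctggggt
Mcm5, chr8:75109345-75109374, plus strand: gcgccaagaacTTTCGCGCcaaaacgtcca
Mcm6, chr1:128359797-128359826, minus strand: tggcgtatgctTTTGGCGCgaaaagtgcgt
Mcm6, chr1:128359734-128359763, minus strand: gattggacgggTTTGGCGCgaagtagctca
Mcm7, chr5:138172030-138172059, minus strand: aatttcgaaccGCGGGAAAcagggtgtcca
Rfc3, chr5:151651209-151651238, minus strand: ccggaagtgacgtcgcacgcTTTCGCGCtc
Pola1, chrX:93632275-93632304, minus strand: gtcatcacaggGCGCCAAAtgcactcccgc
In Mcm5 and in the first Mcm6 window a second E2F match on the opposite strand overlaps the capitals. The other 6 members with a match (Cdt1, Mcm3, Pold1, Pold3, Pole2 and Lig1) had it after the start. The 13 members with a match had a median difference of -3.79 between myotubes and myoblasts, from -5.96 to -1.80, and the 23 without one had -2.54, from -5.97 to -0.46. The ranges overlap almost fully, and Top2a, with the largest fall, had none of the E2F letters but 6 CCAAT and 2 CHR matches.

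Of the licensing genes, Cdc6, the loader that brings the helicase to the origin recognition complex, fell the most in myotubes. Cdc6 read 10.59, 10.51 and 10.68 on the myoblast arrays, 4.60, 4.74 and 4.58 in myotubes, 4.17, 4.91 and 4.58 in EDL and 4.75, 4.85 and 5.14 in soleus. The myoblast arrays stood far above the rest, EDL overlapped with both other groups, and soleus lay just above myotubes without overlap. The differences against myoblasts were -5.96 ± 0.17 (adjusted p = 7.1e-10), -6.04 ± 0.17 and -5.68 ± 0.17, and those of muscle against myotubes were -0.09 and 0.27, not called. Only 2 of 3 arrays of each muscle were well above background for Cdc6. Cdt1, its partner in loading, was 14.58 ± 0.13 (SD, n = 3) in myoblasts, 10.37 ± 0.12 in myotubes, 8.63 ± 0.10 in soleus and 7.90 ± 0.13 in EDL, and no 2 groups overlapped. Orc1, the subunit of the origin recognition complex whose level rises and falls with the cell cycle, was 8.90 ± 0.12 in myoblasts and 4.18 ± 0.32 in myotubes (difference -4.72 ± 0.39, adjusted p = 1.9e-06). No EDL or soleus array was well above background for Orc1, so its drop has only a bound there: at least 22.6-fold lower in EDL and 25.3-fold lower in soleus than in myoblasts, taking the dim group at the lowest signal measured above background on each array. With normexp background correction the soleus difference was -1.60 and not called.

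Orc2 stood at the other end. This core subunit of the origin recognition complex read 11.70, 11.89 and 12.03 on the myoblast arrays, 11.23, 11.42 and 11.58 in myotubes, 10.92, 11.06 and 11.19 in EDL and 10.88, 10.95 and 11.13 in soleus. The groups step down without overlap from myoblasts to myotubes to muscle, but the steps are small, and EDL and soleus overlap. None was called: -0.46 ± 0.13 (adjusted p = 0.00874) in myotubes, -0.82 ± 0.13 (1.5e-04) in EDL and -0.88 ± 0.13 (8.4e-05) in soleus against myoblasts, all past the adjusted p and short of the difference of 1. With spike-in scaling, Orc2 was called lower in both muscles (-2.10 and -2.44). Orc6, a further subunit, was called lower in all 3 (-2.32, -3.44 and -3.19).

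Gmnn encodes geminin, the inhibitor of Cdt1. It was the member that differed most between the muscles. Gmnn read 14.38, 14.39 and 14.19 on the myoblast arrays, 10.86, 10.89 and 10.90 in myotubes, 11.89, 11.64 and 11.95 in EDL and 13.61, 13.46 and 13.60 in soleus. The 4 groups did not overlap: soleus lay just under the myoblasts, EDL in the lower part of the range and myotubes lowest. Soleus exceeded EDL by 1.73 ± 0.10 (3.32-fold, adjusted p = 7.8e-07) and myotubes by 2.67 ± 0.10 (6.39-fold, adjusted p = 2.9e-09). It was below myoblasts by 0.76 (-0.76 ± 0.10, not called). That difference was -2.32 with spike-in scaling and -1.09 with normexp background correction, both called. EDL was called lower than myoblasts (-2.49 ± 0.10), while EDL minus myotubes was 0.95 ± 0.10, not called, and -0.01 with spike-in scaling. One probe reports Gmnn, on the minus strand of chr13:24759448-24759507 in build mm8, the build of the array design; its place within the gene was not looked up because no annotation of that build was used here.

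Markers of dividing cells were compared with Gmnn across the groups. The log2 of the markers' summed signals is called the summed level here and below. It was 17.36 to 17.51 in myoblasts, 11.69 to 11.81 in myotubes, 9.15 to 9.42 in EDL and 9.97 to 10.22 in soleus. Birc5 had no value on EDL replicate 2, so the sum of that array lacks this marker. Of the 10 markers, 2 were called higher in soleus than in EDL (Cdk1, below the background limit on every EDL array, and Kif11, below it in both muscles) and 8 were not. Against myotubes, 8 were called lower in soleus and Cenpa alone was called higher, by 1.84. Ccnb1, Bub1, Aurkb and Kif11 were not well above background on any soleus array. The part of such cells in the Gmnn difference was not tested. Cdt1, the protein partner of geminin, was 0.73 ± 0.11 higher in soleus than in EDL, not called.

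The replicative helicase, the ring of Mcm2 to Mcm7, fell as a whole: all 6 subunits were called lower in myotubes, EDL and soleus against myoblasts. Mcm5 fell most, and read 13.87, 14.28 and 14.26 on the myoblast arrays, 8.49, 9.00 and 8.87 in myotubes, 6.75, 7.30 and 7.26 in EDL and 7.22, 7.41 and 7.34 in soleus. Myoblasts stood highest, myotubes between, and the muscles overlapped at the bottom. The differences were -5.35 ± 0.19 in myotubes (adjusted p = 2.5e-09), -7.03 ± 0.19 in EDL and -6.81 ± 0.19 in soleus. Mcm7 fell least, and read 14.39, 14.59 and 14.64 in myoblasts, 11.34, 11.53 and 11.64 in myotubes, 10.85, 10.99 and 10.92 in EDL and 10.83, 10.97 and 10.96 in soleus. Even so it was 8.2-fold lower in myotubes (-3.04 ± 0.10, adjusted p = 2e-09), and EDL and soleus were level.

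Mcm5 and Mcm6 were called lower in EDL than in myotubes (-1.69 and -1.84), and Mcm2, Mcm5 and Mcm6 in soleus (-1.05, -1.46 and -1.05). Leaving out myotube replicate 1 or soleus replicate 3 took Mcm2 in soleus to -0.95. With normexp background correction the soleus differences of Mcm2 and Mcm5 from myotubes were -0.43 and -0.55, not called. With the authors' deposited values the soleus difference of Mcm6 from myotubes was -0.98, just short of the call. Without these alternatives, Mcm3, Mcm4 and Mcm7 differed from myotubes by -0.58 to 0.03 in EDL and soleus and were not called. The subunits of the ring thus kept unlike distances from their myoblast level, from -3.62 (Mcm7) to -7.03 (Mcm5) in EDL. Between the muscles Mcm2 and Mcm6 pointed opposite ways, with soleus minus EDL at -0.97 ± 0.14 and 0.79 ± 0.08, neither called. Mcm2 passed when EDL replicate 3 was left out (-1.03), without soleus replicate 1 (-1.05), and with quantile normalization (-1.02).

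Among the activators of the helicase, Mcm10, a scaffold of the starting fork, fell most. Mcm10 read 12.54, 12.75 and 12.80 on the myoblast arrays, 7.28, 7.50 and 7.64 in myotubes, 4.85, 5.39 and 5.19 in EDL and 5.27, 5.81 and 5.72 in soleus. Myotubes sat well below myoblasts (-5.22 ± 0.18, adjusted p = 2.3e-09) and both muscles lower still (-2.33 and -1.88 against myotubes), with 2 of 3 EDL arrays well above background. Cdc45, which with GINS completes the working helicase, fell least of this class. Cdc45 read 10.26, 10.09 and 10.23 in myoblasts, 7.69, 7.65 and 7.62 in myotubes, 6.15, 6.04 and 6.23 in EDL and 6.30, 6.14 and 5.97 in soleus, a difference of -2.54 ± 0.10 in myotubes. The muscles lay together, 1.51 below myotubes in each case (-1.51 ± 0.10), and their difference of 0.00 was among the smallest of all members. With normexp background correction the differences of EDL and soleus from myotubes were -0.63 and 0.00 for Cdc45 and -0.81 and -0.05 for Mcm10, not called.

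Gins1, a GINS subunit, did not follow the others. Gins1 read 11.84, 11.91 and 11.78 on the myoblast arrays, 7.68, 7.87 and 7.89 in myotubes, 8.55, 8.34 and 8.54 in EDL and 9.37, 9.42 and 9.38 in soleus. It was lowest in myotubes, and no 2 groups overlapped. Soleus was called higher than myotubes, by 1.58 ± 0.09 (2.99-fold, adjusted p = 6.2e-08), which became 0.35 with spike-in scaling and lost its call. EDL minus myotubes was 0.66 ± 0.09, not called, and -0.29 with spike-in scaling, and soleus minus EDL was 0.91 ± 0.09, not called. The probe shown lies at chr2:150622573-150622632 (mm8, plus strand), and a second Gins1 probe, at chr2:150601225-150604271, gave 1.29, 0.38 and 0.91 for the same comparisons. The probe with the RefSeq accession of Gins2 had means of 11.32, 7.38, 5.49 and 5.50 in myoblasts, myotubes, EDL and soleus, so this second GINS subunit was lower in both muscles than in myotubes (-1.89 and -1.88). Cdc7 and Dbf4, kinase and activator, were called lower in all comparisons with myoblasts, at -3.62 to -3.15 for Cdc7 and -5.87 to -4.13 for Dbf4.

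The sliding clamp Pcna, which tethers polymerases to DNA, stayed bright in every group. It fell from 15.29 ± 0.05 in myoblasts to 13.13 ± 0.05 in myotubes (-2.16 ± 0.09), 11.87 ± 0.05 in EDL and 12.02 ± 0.15 in soleus (-3.42 and -3.27 against myoblasts). Of the 5 subunits of replication factor C, the clamp loader, Rfc5 fell most and Rfc1 least. Rfc5 read 12.88, 13.26 and 13.39 on the myoblast arrays, 9.12, 9.49 and 9.62 in myotubes, 8.18, 8.35 and 8.48 in EDL and 7.91, 8.48 and 8.43 in soleus. Its differences against myoblasts were -3.76 ± 0.20, -4.84 ± 0.20 and -4.90 ± 0.20, and the muscles overlapped. Both muscles were called lower than myotubes, but narrowly: without EDL replicate 1 or myotube replicate 3 the EDL difference of -1.07 became -0.99 and -0.97, and without soleus replicate 1 the soleus difference of -1.14 became -0.95.

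Rfc1, the large subunit of the loader, read 12.92, 13.10 and 13.00 in myoblasts, 11.68, 11.85 and 11.71 in myotubes, 12.31, 12.36 and 12.31 in EDL and 11.92, 11.95 and 11.95 in soleus. The groups did not overlap, and both muscles lay between myotubes and myoblasts. Rfc1 was called lower in myotubes (-1.26 ± 0.07, adjusted p = 1.4e-07) and soleus (-1.07 ± 0.07), while the EDL difference of -0.68 ± 0.07 was short of 1 and became -1.96 with spike-in scaling. Rfc4 had the same order of groups, at 13.12, 10.77, 11.60 and 11.02 in myoblasts, myotubes, EDL and soleus. Rfc2 and Rfc3 were lower in muscle than in myotubes, by 0.50 for Rfc2 (-0.50 in each muscle, not called) and by 1.68 and 1.76 for Rfc3 (-1.68 in EDL and -1.76 in soleus, called). With normexp background correction the soleus difference of Rfc3 from myotubes was -0.63 and not called. With spike-in scaling all 5 loader subunits lay below myotubes in both muscles, Rfc1 at -0.37 in EDL and -1.03 in soleus and Rfc4 at -0.12 and -0.97.

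All 9 polymerase and primase subunits were called lower in myotubes than in myoblasts. The catalytic subunit of polymerase epsilon, Pole, fell most, and read 12.07, 12.31 and 12.22 on the myoblast arrays, 7.70, 8.14 and 8.06 in myotubes, 7.90, 8.23 and 8.16 in EDL and 8.73, 8.98 and 9.04 in soleus. The drop to myotubes was -4.23 ± 0.14 (adjusted p = 2.2e-09), EDL overlapped with myotubes, and soleus lay above both (0.95 ± 0.14 and 0.82 ± 0.14, neither called). With spike-in scaling Pole lay below myotubes in EDL (-0.82) and soleus (-0.27). Its partner subunit Pole2 had the muscles lowest instead, at 5.48 ± 0.43 in EDL and 6.46 ± 0.23 in soleus against 7.25 ± 0.11 in myotubes. Only 2 of 3 EDL arrays were well above background for Pole2. With normexp background correction its EDL minus myotube difference was -0.52, not called. The soleus minus EDL difference of Pole2 was 0.98 ± 0.21, just short of the call. It passed without EDL replicate 2 (1.14), without EDL replicate 3 (1.05) and without soleus replicate 1 (1.11). Quantile normalization and the authors' deposited values gave 1.04, called.

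Pola2, the regulatory subunit of the polymerase alpha-primase complex that starts each new strand, had the largest differences above myotubes in either muscle. Pola2 read 10.02, 9.51 and 9.53 on the myoblast arrays, 6.82, 6.22 and 6.44 in myotubes, 8.66, 8.40 and 8.54 in EDL and 9.46, 8.91 and 9.26 in soleus. Myotubes lay far below everything else, and the highest soleus array (9.46) was just under the lowest myoblast array (9.51). It fell in myotubes (-3.20 ± 0.20, adjusted p = 2.3e-07), and was called higher than myotubes in EDL (2.04 ± 0.20, 4.11-fold, adjusted p = 5.5e-06) and in soleus (2.72 ± 0.20, 6.59-fold, adjusted p = 5.9e-07). Soleus minus myoblasts was -0.48 ± 0.20 (adjusted p = 0.0516), and -2.03 and called with spike-in scaling. Of 3 Pola2 probes the other 2 were dim and not kept. The catalytic subunit Pola1 and both primase subunits did not share this pattern: Pola1 was 8.16 in myotubes, 7.89 in EDL and 8.16 in soleus, Prim1 fell from 10.93 to 8.59 and 7.71, and Prim2 from 9.29 to 7.02 and 7.14.

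Polymerase delta copies the lagging strand and also serves repair. By the probes shown, it held the subunit with the smallest fall in myotubes among the 9 polymerase and primase members. This accessory subunit, Pold3, read 11.63, 11.52 and 11.25 on the myoblast arrays, 9.84, 9.71 and 9.45 in myotubes, 10.45, 10.25 and 10.13 in EDL and 10.52, 10.35 and 10.27 in soleus. Myotubes were lowest, 1.80 below myoblasts (-1.80 ± 0.14, adjusted p = 1.2e-06), and the muscles overlapped between the cultured groups. EDL minus myotubes was 0.61 ± 0.14, not called, and became -0.35 with spike-in scaling and -0.51 when the 3 Pold3 probes were averaged. Pold1, the catalytic subunit, had the same order, at 13.01, 9.82, 10.46 and 10.49 in myoblasts, myotubes, EDL and soleus. Pold2 reached 9.87 ± 0.19 in EDL against 9.00 ± 0.14 in myotubes and 9.01 ± 0.11 in soleus. It was only just called lower in EDL than in myoblasts (-1.01), a call lost without myoblast replicate 1 (-0.99) or EDL replicate 2 (-0.91). With spike-in scaling Pold1 and Pold2 lay below myotubes in EDL (-0.32 and -0.08) and in soleus (-0.56 and -1.22).

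The 3 subunits of RPA, which coats single-stranded DNA in replication and repair, were among the least reduced. Rpa1 read 14.01, 14.18 and 14.38 on the myoblast arrays, 12.03, 12.31 and 12.32 in myotubes, 13.44, 13.61 and 13.47 in EDL and 12.85, 13.07 and 13.10 in soleus. The groups did not overlap, with EDL nearest to myoblasts and myotubes lowest. EDL was called higher than myotubes (1.29 ± 0.12, 2.44-fold, adjusted p = 4.5e-06), a difference of 0.33 and not called with spike-in scaling. Soleus minus myotubes was 0.79 ± 0.12, not called, and -0.44 with spike-in scaling. Against myoblasts Rpa1 was called lower in myotubes (-1.98 ± 0.12) and soleus (-1.19 ± 0.12) but not in EDL (-0.69 ± 0.12; -1.97 and called with spike-in scaling).

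Rpa2 read 11.37, 11.45 and 11.37 in myoblasts, 10.18, 10.42 and 10.39 in myotubes, 10.77, 10.69 and 10.99 in EDL and 10.39, 10.63 and 10.65 in soleus. Soleus overlapped with myotubes, and EDL lay between them and myoblasts. Only the myotube difference was called (-1.07 ± 0.11, adjusted p = 1e-05), and it came just short of 1 without myotube replicate 1; EDL and soleus were at -0.58 ± 0.11 and -0.84 ± 0.11. Rpa3 fell most of the 3, and read 12.16, 12.25 and 12.21 in myoblasts, 9.98, 10.22 and 9.96 in myotubes, 10.69, 10.62 and 10.49 in EDL and 10.69, 10.74 and 10.55 in soleus. It was called lower in all 3 groups (-2.15, -1.61 and -1.55), with the muscles overlapping above myotubes.

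**Figure D2:**
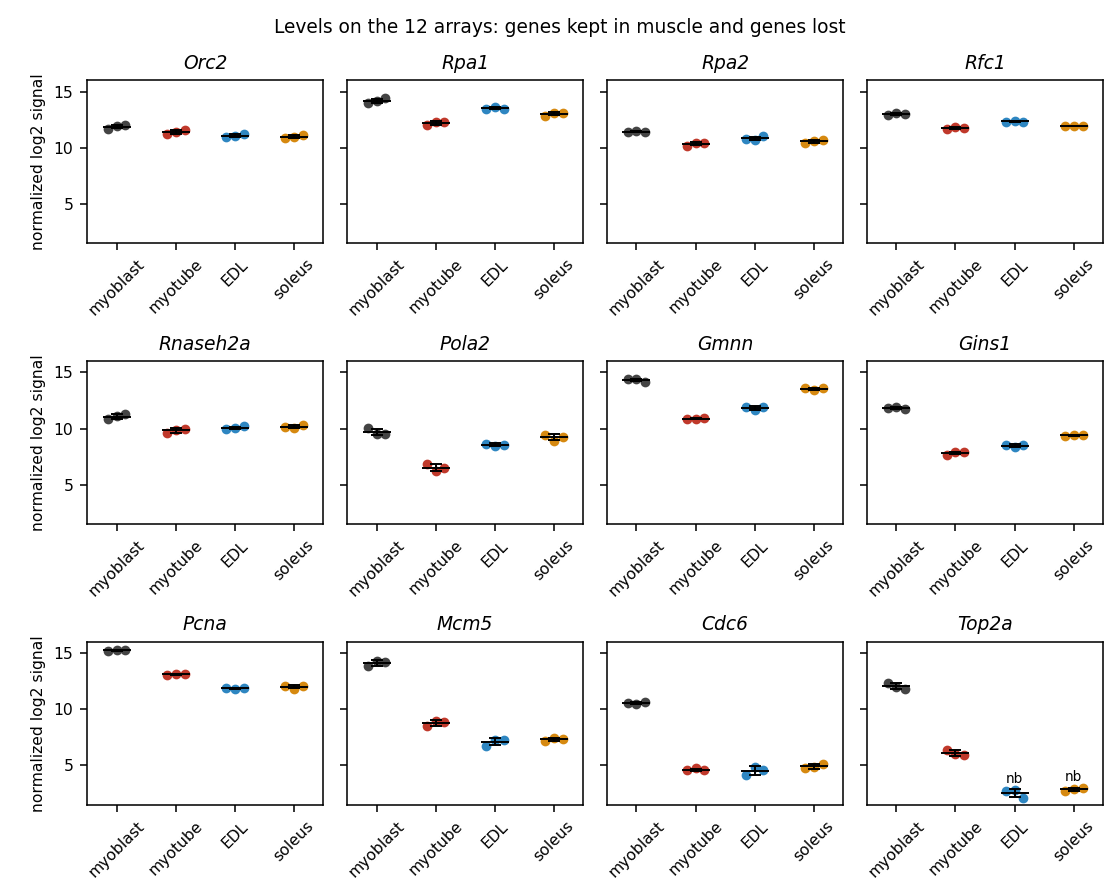
Normalized log2 signal (y axis) of 12 members in the 4 groups (x axis); dots are arrays, bars are the mean and SD of 3 arrays, and nb marks a group not well above background on any array. Orc2, Rpa1, Rpa2, Rfc1 and Rnaseh2a differ from myoblasts by -1.98 at most, Pola2, Gmnn and Gins1 are lowest in myotubes and highest of the differentiated groups in soleus, and Pcna, Mcm5, Cdc6 and Top2a fall in all. With spike-in scaling, Gmnn and Gins1 in EDL no longer exceed myotubes (-0.01 and -0.29).

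Okazaki fragments, the short pieces of the lagging strand, are trimmed and joined by Fen1, RNase H2 and Lig1. Lig1, the replicative ligase, read 13.76, 13.94 and 13.75 on the myoblast arrays, 10.82, 11.21 and 10.95 in myotubes, 10.69, 10.81 and 10.75 in EDL and 10.21, 10.66 and 10.47 in soleus. It fell by 2.82 in myotubes (-2.82 ± 0.13, adjusted p = 2.5e-08), and the other groups lay within a narrow band below. Rnaseh2a, the catalytic subunit of RNase H2, which removes ribonucleotides from DNA, read 10.86, 11.09 and 11.26 in myoblasts, 9.63, 9.85 and 9.99 in myotubes, 9.98, 10.02 and 10.19 in EDL and 10.14, 10.04 and 10.29 in soleus. Myoblasts were highest and the other groups nearly level. It was called lower in myotubes (-1.25 ± 0.13, adjusted p = 1.2e-05) and barely in EDL (-1.01 ± 0.13), and not in soleus (-0.91 ± 0.13). These calls hung on single arrays: EDL fell short without myoblast replicate 3 (-0.92), EDL replicate 1 (-0.97) or EDL replicate 2 (-0.99), and soleus passed without myoblast replicate 1 (-1.02). Averaging its 2 probes gave -0.88 in myotubes, not called. Fen1, the flap nuclease, fell in myotubes, EDL and soleus (-2.80, -3.11 and -3.44).

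Top2a, the topoisomerase that untangles replicated chromosomes, showed the largest fall. Top2a read 12.40, 12.04 and 11.85 on the myoblast arrays, 6.38, 6.07 and 5.92 in myotubes, 2.69, 2.85 and 2.13 in EDL and 2.72, 2.90 and 2.99 in soleus. Myotubes were 62.8-fold lower than myoblasts (-5.97 ± 0.21, adjusted p = 2.6e-09). No muscle array was well above background, so Top2a was at least 207-fold lower in EDL and 232-fold lower in soleus than in myoblasts, and at least 3.3-fold and 3.7-fold lower than in myotubes. With normexp background correction the differences of EDL and soleus from myotubes were -0.35 and 0.54, not called. The bounds against myotubes did not hold with that correction.

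Chromatin assembly factor 1 places histones behind the fork. Its subunit Chaf1b read 13.09, 13.29 and 13.32 in myoblasts, 7.38, 8.00 and 8.16 in myotubes, 5.90, 6.01 and 5.91 in EDL and 5.83, 6.31 and 6.53 in soleus. Myotubes fell by 5.39 (-5.39 ± 0.22, adjusted p = 7.4e-09) and the muscles, which overlapped, lay lower again (-1.91 and -1.62 against myotubes, or -0.78 and -0.03, not called, with normexp background correction). Chaf1a, the large subunit, read 12.19, 12.14 and 11.96 in myoblasts, 8.12, 8.12 and 8.17 in myotubes, 6.17, 6.45 and 6.33 in EDL and 7.31, 7.09 and 7.21 in soleus. Its 4 groups did not overlap: it fell by 3.96 in myotubes (-3.96 ± 0.10), EDL was lowest, and soleus minus EDL was 0.89 ± 0.10, not called.

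Timeless and Tipin form the complex that steadies a stalled fork. Tipin read 13.34, 13.42 and 13.47 on the myoblast arrays, 10.45, 10.47 and 10.56 in myotubes, 11.24, 11.13 and 11.34 in EDL and 10.82, 10.51 and 10.79 in soleus. Myotubes were lowest (-2.92 ± 0.10 against myoblasts, adjusted p = 2.2e-09) and overlapped with soleus. With spike-in scaling Tipin lay below myotubes in EDL (-0.21) and soleus (-1.01). Timeless read 10.69, 10.73 and 10.63 in myoblasts, 8.67, 8.64 and 8.51 in myotubes, 9.08, 9.24 and 9.09 in EDL and 9.40, 9.54 and 9.47 in soleus. By this probe the groups did not overlap and myotubes were lowest (-2.08 ± 0.08, adjusted p = 5.5e-09), with EDL minus myotubes at 0.53 ± 0.08, not called. With spike-in scaling the differences of EDL and soleus from myotubes were -0.42 and -0.37. A second Timeless probe placed the muscles below the myotubes instead, as described next.

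Where a member had several probes, they did not always tell the same story. Of the 43 members, 12 had more than 1 kept probe. All kept probes of these 12 were lower in myotubes, EDL and soleus than in myoblasts, but for 7 of the 12 the probes differed in sign for EDL minus myotubes, and for 7 in soleus minus myotubes. The Timeless probe with the higher signal lay at chr10:127655689-127655748 (mm8, plus strand) and gave -1.55 for EDL minus myoblasts; the other, at chr10:127647637-127647696, gave -6.01, and -2.02 for EDL minus myotubes against 0.53. Averaged over probes, Timeless was -0.74 in EDL minus myotubes.

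The 3 kept probes of Pold3 gave 0.61, -0.09 and -2.05 for EDL minus myotubes, and -1.19, -2.34 and -4.26 for EDL minus myoblasts. The last pair, with close values in myotubes against myoblasts (-2.25 and -2.21), have design coordinates 1 base apart on the minus strand, chr7:99957523-99957582 and chr7:99957522-99957581 in mm8. All 3 were well above background on every array. Dbf4 had -1.59, 0.10 and 0.92, and Top2a -3.56, -0.62 and 0.90, but the Dbf4 probes that disagreed and all 3 Top2a probes were below that level on every EDL array, and the values of Dbf4 averaged over probes were -0.19 and -0.32 against myotubes, not called. For Rpa2, Pold1, Mcm3, Rfc2 and Gins1 the probes differed by at most 0.5 in each comparison with myoblasts.

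**Figure D3:**
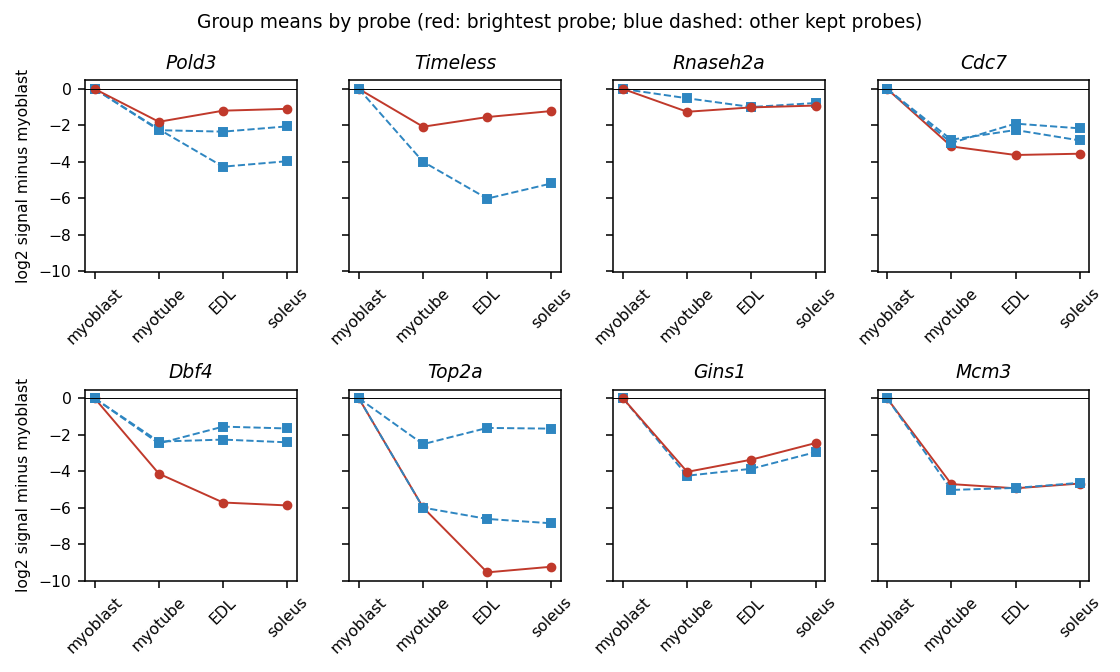
Group means of each kept probe of 8 members, as log2 signal minus the myoblast mean of the same probe (y axis), in the 4 groups (x axis); red is the probe used throughout, blue dashed lines are the other kept probes. All lines fall from myoblasts, but those of Pold3 and Timeless part in muscle, from -1.19 to -4.26 and from -1.55 to -6.01 in EDL.

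Between the muscles, of 43 members, Gmnn alone was called higher in soleus than in EDL and none lower, with a median of 0.10, against 5.03% of all genes called higher and 4.74% lower, with a median of -0.04. The ranges of 22 of 43 members did not overlap between the muscles, against 44.7% of all genes. Without the demand for a difference of 1, 18 members passed the adjusted p, 11 higher and 7 lower, where 14.8% of all genes passed higher and 16.7% lower. Nearest to the threshold on the higher side were Pole2 (0.98), Gins1 (0.91) and Chaf1a (0.89), and on the lower side Mcm2 (-0.97), Prim1 (-0.87 ± 0.09) and Pold2 (-0.86 ± 0.11). Primase subunit Prim1 read 8.71, 8.55 and 8.51 in EDL and 7.69, 7.81 and 7.64 in soleus, without overlap. Mcm7, Rfc2 and Cdc45 stood at 0.00, with standard errors of 0.10, 0.12 and 0.10. Without EDL replicate 3 or soleus replicate 1 the count was 3, and without EDL replicate 2 it was 2.

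**Figure D4:**
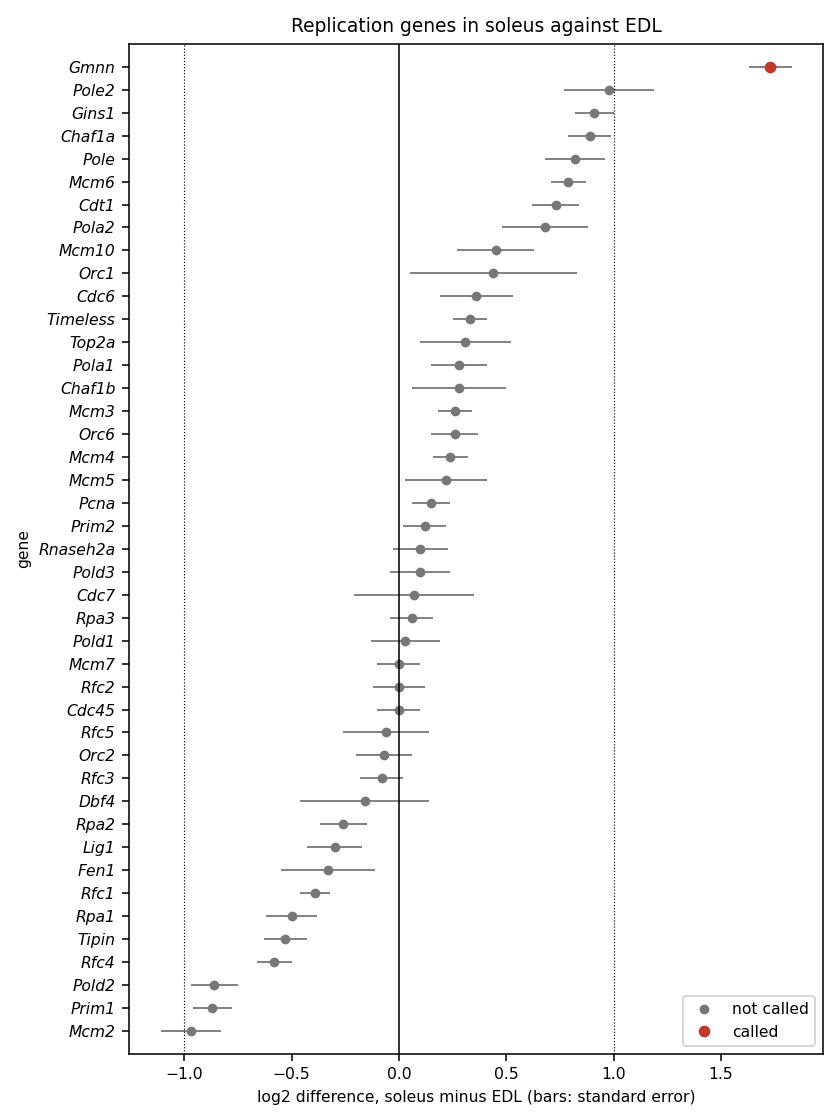
Log2 difference of soleus minus EDL (x axis) for the 43 members (y axis), with bars of 1 standard error and dotted lines at -1 and 1. Only Gmnn, at 1.73, was called; the others lie between -0.97 and 0.98.

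By the rule used here, 7 members were kept in muscle, that is, well above background on all 6 muscle arrays and not called lower than myoblasts in at least 1 muscle: Orc2, Gmnn, Rfc1, Pola2, Rpa1, Rpa2 and Rnaseh2a. They come from 5 of the 10 roles. With spike-in scaling each of them was called lower in both muscles. Gmnn was also called lower in soleus with normexp background correction (-1.09). The whole muscles also held other cells than fibres. All 8 endothelial markers, 8 of 9 macrophage and leukocyte markers, 5 of 7 fibroblast markers, all 4 adipocyte, all 4 Schwann cell and all 4 smooth muscle markers and both measured erythroid markers were called higher in EDL and in soleus than in myoblasts. The summed endothelial level was 15.19 to 15.21 in EDL and 15.27 to 15.39 in soleus against 7.51 to 8.01 in myotubes, where Pecam1, Cdh5 and Emcn were not well above background, and the summed macrophage level was 13.74 to 13.81 and 13.86 to 13.92 against 7.83 to 8.07, where Ptprc, Adgre1, C1qa, C1qc and Cd163 were not. The summed levels in EDL, soleus and myotubes were at most 17.97, 17.44 and 14.56 for fibroblasts, 16.37, 16.99 and 7.54 for adipocytes, 12.17, 13.30 and 7.87 for Schwann cells, 18.35, 18.03 and 16.58 for smooth muscle and 15.12, 14.07 and 7.17 for erythroid cells. For satellite cells, the resident precursors, they were 11.77, 11.87 and 15.09, but the 4 markers were split: Calcr and Pax7 were called higher and Cdh15 and Myf5 lower in each muscle than in myotubes. The part of these cells in the muscle levels of the replication genes was not tested.

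Of 40 further replication genes outside the set, all measured, most were also called lower against myoblasts, but less uniformly than the members. Against myoblasts, 27 were called lower in myotubes, 28 in EDL and 28 in soleus, none higher, with medians of -1.99, -2.28 and -1.97. Among all genes, 16.5%, 24.8% and 24.7% were called lower and 18.9%, 33% and 30.8% higher. Polb and Top1 instead stood higher in myotubes, by 0.87 and 0.78, not called. Exo1, a nuclease of mismatch repair and replication, fell in myotubes by 6.51, and Asf1b, a histone chaperone, by 4.21. Orc3 and Orc4, core subunits of the origin complex beside Orc2, were not called in any of the 6 comparisons; their differences against myoblasts ran from -0.50 to 0.69. Orc5 was lower in myotubes (-2.01 ± 0.17) and called higher in EDL than in myotubes (1.60 ± 0.17), as was Rif1, a regulator of origin timing, in soleus (1.11 ± 0.21). In all, 17 were called lower and 1 higher in EDL than in myotubes (19.8% and 27.9% of all genes). In soleus 16 were called lower and 1 higher (19.5% and 25.8% of all genes). Between the muscles only Uhrf1, which helps copy DNA methylation at the fork, was called: it read 5.74, 5.15 and 5.39 in EDL and 7.76, 7.15 and 7.25 in soleus, a difference of 1.96 ± 0.21 (adjusted p = 7.0e-05).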

How the data were processed

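RNA of 4 groups was hybridized to 12 one-colour Agilent arrays. Per the file headers, the deposited scanner files give each spot's processed signal as an intensity from Agilent Feature Extraction 10.5.1.1, not scaled between arrays, with 0 or 1 flags among other columns per the file headers. The authors' deposited values are also an intensity, with scaling not stated in words and centring unknown; these served as an alternative (lowest r with the scanner values 0.9976). Outlier spots (68 to 140 per array) and controls were left out, and no spot was saturated. The log2 signal, minus each array's 75th percentile and plus 9.648, was averaged over the spots of a probe. A probe was kept if some group had it well above background on each of its 3 arrays, and a gene was shown by its brightest kept probe. Differences were tested two-sided with limma 3.58.1 (lmFit and eBayes, R 4.3.3, data.table (1.17.8)) on all 12 arrays with 4 group means, checked on simulated data. Arrays limit the precision by their number, 3 per group.

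The members and all lists were chosen with earlier results of these data known. Values on every array are given for the member with the largest and the smallest myotube difference in each role, those kept in muscle, those called higher in muscle, those called between the muscles and the smallest difference between them (Cdc45, first of 3 ties); other values per array were chosen after they were seen. Each replicate number is 1 of the 3 slides. Residuals of arrays with the same number correlated in all 18 pairs (0.225 to 0.66, against -0.493 to 0.201 over 36 other pairs), so the numbers pair the samples. The slide cannot be told apart from other sources of this pairing. The labels do not say if EDL and soleus samples with the same number came from the same mouse. The first slide had a scan day of its own. Each group always took the same position on a slide, and these cannot be told apart. Promoter letters were searched with Python 3.11.15 (pandas 2.3.3), and figures drawn with matplotlib 3.10.9. Alternatives were quantile normalization, spike-in scaling, normexp (offset 50), the authors' values, no filter, the mean over probes, the slide as a block, the compared groups only, no minimum difference and leaving out arrays.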

Additional observations from a re-analysis of the deposited data

Results flagged for a closer look

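Gmnn was the member whose level differed between the muscles: soleus minus EDL was 1.73 ± 0.10 (limma, adjusted p = 7.8e-07). On every slide the soleus array lay above the EDL array. The cause was not tested.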

How the results depend on the processing

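Alternatives were followed for 178 member results: all against myoblasts, the other called ones, and some uncalled ones picked after seeing their values. The direction and the call of most held. Of 3202 combinations of such a result and an alternative, 3095 kept both, 50 lost the call, 46 gained it and 11 changed sign. Some of these settings left the members' differences as they were: the slide block, the compared groups only, no filter and no minimum difference. No minimum difference can only add calls. The share kept is thus partly fixed by the settings counted. The replicate block, with the slide as the pairing, changed no call, and the counts of members called stayed at 42, 39, 38, 19, 18 and 1 in the order of the report. Counts of members called in EDL against myotubes moved from 19 to 10 with normexp and 35 with no minimum difference. In soleus against myotubes they moved from 18 to 32 with spike-in scaling, 10 with normexp and 36 with no minimum difference. In soleus against EDL they moved from 1 to 3 with quantile normalization, 2 with spike-in scaling, 3 with the authors' deposited values and 18 with no minimum difference. Leaving out arrays gave 41 to 42 calls in myotubes against myoblasts, 37 to 39 in EDL and 38 to 39 in soleus against myoblasts, 18 to 20 and 17 to 19 in EDL and soleus against myotubes, and 1 to 3 between the muscles. Signs changed with normexp for Orc1 in EDL (0.40) and soleus (1.25), and for Dbf4 (0.21) and Top2a (0.54) in soleus, all against myotubes. They changed with spike-in scaling for Gmnn (-0.01), Gins1 (-0.29), Pold3 (-0.35) and Timeless (-0.42) in EDL and Rpa1 (-0.44) in soleus against myotubes. With the mean over probes they changed for Pold3 (-0.51) and Timeless (-0.74) in EDL. Uncalled results outside the 178 also changed sign with spike-in scaling. In EDL minus myotubes, for example, Rfc1 went from 0.58 to -0.37, Rfc4 from 0.84 to -0.12 and Tipin from 0.74 to -0.21. In soleus minus myotubes Rpa3 went from 0.61 to -0.62 and Pole from 0.95 to -0.27. Spike-in scaling shifts all genes of an array alike by construction; for the other settings the cause was not tested. Signals near background (Orc1, Top2a, Cdc6, Mcm10 and Pole2 in muscle) limit what these arrays can order. Across all genes, spike-in scaling took the share of calls that were higher from 57.1% to 25.5% in EDL and from 55.5% to 20.8% in soleus against myoblasts, and from 58.4% to 25.8% and from 57% to 19.3% against myotubes.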
